A study of Mus musculus with 8 samples.

Results

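The 32 genes described here mark the fat that surrounds the aorta: 23 are genes of white fat cells and 9 are genes of brown fat cells. They were chosen by name, with earlier results of these arrays known. Each is represented by the probe set that is annotated to its symbol alone and has the highest mean over all 8 arrays. Of the 32 genes, 27 had such a probe set, 19 of the white and 8 of the brown list, among 18193 genes on the array with one. Cfd, Plin1, Acsl1 and Adrb3 had no probe set annotated to them alone and Cpt1b had only one that carries several symbols, so these 5 have no value here. Lep was too dim for the test, which left out the lowest 40% of probe sets by mean, so 26 members were tested, 18 white and 8 brown.

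Expression was measured in whole aorta on 8 Affymetrix mouse arrays, 4 of mutant and 4 of control mice, to ask what loss of serum response factor (SRF) in smooth muscle does to the vessel. The control mice, labelled SRF-flex2neo, carry floxed Srf alleles and no Cre. The mutants, labelled SRF-flex2neo -SM22CreERT2ki/+, are their littermates with a tamoxifen-activated Cre recombinase knocked into 1 allele of SM22 (Tagln). Both groups were 4 months old and received 1 mg of tamoxifen by intraperitoneal injection on 3 days, and the aorta was taken 8 days later. The Cre is driven by a smooth muscle gene, and in which cells of these aortas it acted was not tested. The controls carry neither the Cre nor the altered Tagln allele, so effects of the Cre and of Srf loss cannot be told apart. The titles put controls 1 and 2 with mutants 1 and 2 in set 1, and controls 3 and 4 with mutants 3 and 4 in set 2. What a set stands for is not given. Nor do the sources used here say that each array is another mouse, so a p-value measures the spread between arrays, which may be technical.

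White fat cells store triglyceride in a single large droplet and secrete hormones such as adiponectin and leptin. Brown fat cells hold many small droplets and many mitochondria, and burn fatty acids to make heat through the uncoupling protein UCP1. In mice the fat along the thoracic aorta resembles brown fat and that along the abdominal aorta is closer to white fat, and both kinds depend on the transcription factors PPARγ and C/EBPα. Such fat adheres to a dissected aorta, and in whole tissue a change in the number of fat cells and a change in RNA per fat cell cannot be told apart.

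Start-site sequences were available from RefSeq (build GRCm38.p6) for 22 of the 32 members, as 28 windows of the 250 bases before a start. Those of 4 genes are shown because their values on the arrays differ most in kind: Adipoq follows the bulk of the white genes, Lep is raised in 1 array alone, and Ucp1 and Dio2 are brown fat genes with unlike patterns. The sequences run 5′ to 3′ on the gene's strand, and capitals mark each match to a searched motif on either strand.
Adipoq, chr16:23146286-23146535, plus strand: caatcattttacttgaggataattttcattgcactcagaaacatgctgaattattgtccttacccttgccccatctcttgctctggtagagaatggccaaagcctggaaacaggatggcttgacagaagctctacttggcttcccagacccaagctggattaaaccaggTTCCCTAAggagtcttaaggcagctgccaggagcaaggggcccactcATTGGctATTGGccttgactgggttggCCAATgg
Lep, chr6:29059971-29060220, plus strand: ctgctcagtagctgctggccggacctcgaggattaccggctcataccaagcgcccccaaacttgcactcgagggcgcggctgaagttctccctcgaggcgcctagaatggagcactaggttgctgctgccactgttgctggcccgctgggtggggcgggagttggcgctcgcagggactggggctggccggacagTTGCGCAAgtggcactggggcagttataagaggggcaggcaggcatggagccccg
Ucp1, chr8:83290098-83290347, plus strand: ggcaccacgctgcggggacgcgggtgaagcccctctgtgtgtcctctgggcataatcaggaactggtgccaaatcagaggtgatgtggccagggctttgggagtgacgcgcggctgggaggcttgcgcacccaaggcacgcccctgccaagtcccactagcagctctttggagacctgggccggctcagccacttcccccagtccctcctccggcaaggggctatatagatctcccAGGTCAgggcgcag
Dio2, chr12:90739039-90739288, minus strand: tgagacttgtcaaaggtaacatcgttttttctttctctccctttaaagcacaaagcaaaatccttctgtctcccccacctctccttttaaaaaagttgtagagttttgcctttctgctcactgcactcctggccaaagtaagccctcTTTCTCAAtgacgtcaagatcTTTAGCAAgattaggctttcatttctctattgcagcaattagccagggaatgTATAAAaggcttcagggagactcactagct
In Adipoq the capitals mark a C/EBP motif (TTNNGNAA) starting 81 bases before the start and then 3 CCAAT motifs, the farthest 34 bases before it. In Lep they mark a C/EBP motif 55 bases before the start. The Ucp1 window holds AGGTCA, the core element of nuclear receptors such as PPARγ, 14 bases before the start. The Dio2 window holds C/EBP motifs, the farther 103 bases before the start, and TATAAA 30 bases before it. Over the 28 member windows the C/EBP motif was found in 9, against 36.8% of all 32851 windows, and AGGTCA in 5, against 14.0%. CCAAT was found in 8 member windows (33.8% of all windows) and TATAAA in 3 (12.4%). The direct repeat of AGGTCA with 1 base between the copies, the form that PPARγ and its partner RXR bind, was in 0 member windows and 0.0335% of all windows. The CArG box, to which SRF binds, was in 0 member windows and 1.47% of all. A match is a stretch of letters only, and its absence from these short windows says nothing of the factor.

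The deposited values were on the log2 scale, and array medians ran from 3.72 to 3.98, with mutant 2 the highest. Over all probe sets, correlations of mutant 2 with other arrays were 0.961 to 0.974, and those among the remaining 7 arrays were 0.983 to 0.997. Srf itself was at 10.15 to 10.52 in the controls and 9.54 to 10.34 in the mutants, which overlap, and its difference of -0.20 (SE 0.19) did not pass (limma adjusted p = 0.686). Whether its probe set lies in the floxed part of the gene was not examined, so it is no check of the deletion. The smooth muscle list was highest, relative to its own mean, in control 4 (0.15) and lowest in mutant 2 (-0.36).

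Of the defining markers of mature fat cells with a value, Adipoq, Cidec and Retn were above 2.97, the lowest mean kept in the test, in all 8 arrays, and Lep was above it in mutant 2 alone. No member passed the test of mutant against control: 0 of 18 white and 0 of 8 brown genes had a limma Benjamini-Hochberg adjusted p under 0.05, and 0.0% of the 12173 genes tested did. At an unadjusted p under 0.05 the count was also 0 of 26 members, against 10.4% of all genes. The lowest unadjusted p of a member was that of Lpl (0.0765), and adjusted p ran from 0.558 to 0.891. In the fit 25 of the 26 members were nevertheless higher in the mutants, 17 white and 8 brown, against 44.9% of all genes, with Plin4 the exception. The median difference, mutant minus control on the log2 scale, was 0.75 for the white and 1.03 for the brown genes, against -0.02 for all genes. The 4 mutants and the 4 controls overlapped for each of the 26. Of all genes 3.84% did not overlap, so 0 of 26 members is near that share. The sign of the difference was kept for all 26 when the arrays were put on a common median or on common quantiles. The medians moved with single arrays. Without mutant 2 they were 0.14 and 0.31, without control 1 they were 0.28 and 0.26, without control 3 they were 1.17 and 1.58, and without mutant 3 the brown median was 1.81. With array weights, which gave mutant 2 the lowest weight, they were 0.32 and 0.62.

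**Figure D1:**
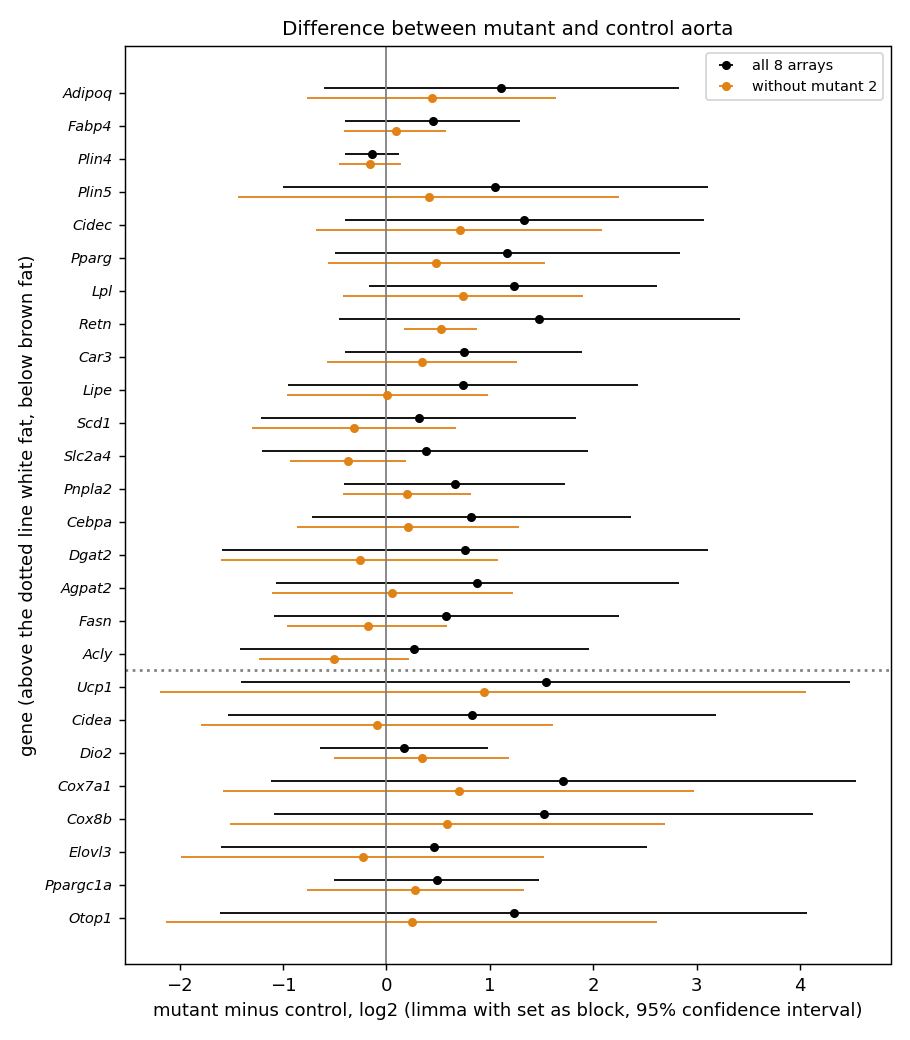
Difference between mutants and controls (log2) for each tested member, with all 8 arrays and without mutant 2. Points are limma estimates with the set as block and bars their 95% intervals. Each interval of the fit with all 8 arrays includes 0, and without mutant 2 the estimates lie closer to 0 for most genes, with 18 of 26 above it.

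Among the secreted products of fat cells, Adipoq (adiponectin) was at 9.85, 10.15, 10.64 and 10.36 in controls 1 to 4 and at 11.90, 13.63, 9.66 and 10.26 in mutants 1 to 4. Mutants 1 and 2 stood above all controls and mutants 3 and 4 did not. The difference of 1.11 (SE 0.72, 95% interval -0.60 to 2.83) did not pass (adjusted p = 0.613). Nor did it pass the two-sided exact permutation test of 4 arrays against 4, which ignores the set (p = 0.371, where 0.0286 is the smallest it can give). Lep (leptin) was at 2.08 to 2.13 in the controls and in mutants 1, 3 and 4, below the lowest mean kept in the test, and at 5.65 in mutant 2. Retn (resistin, an adipocyte hormone in mice) was at 5.52, 5.39, 6.74 and 6.28 in the controls and at 6.13, 9.84, 6.92 and 6.95 in the mutants. It was the only tested member with both mutants above both controls in set 2 as well as in set 1. Its difference was 1.48 (SE 0.82, adjusted p = 0.582), and without mutant 2 it was 0.53 (SE 0.15) with an unadjusted limma p of 0.0102 and an adjusted p of 0.424. In that fit 1 of 18 white and 0 of 8 brown genes had an unadjusted p under 0.05, against 1174 of all 12173 genes.

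Of the proteins that coat or bind stored lipid, Cidec, which enlarges droplets, was at 6.46, 5.81, 7.56 and 7.31 in the controls and 8.49, 9.91, 6.76 and 7.32 in the mutants. Both mutants of set 1 were above every control, and the difference was 1.33 (SE 0.73, adjusted p = 0.58). Plin5, which tethers droplets to mitochondria in oxidative tissues, was at 4.23, 6.40, 7.21 and 6.68 in the controls and 7.32, 8.85, 5.66 and 6.91 in the mutants, so that control 1 stood 2.17 below the other control of its set. Fabp4, the fatty acid carrier of fat cells, ranged from 13.89 to 14.55 in the controls and from 14.04 to 15.82 in the mutants (difference 0.45, SE 0.36). Plin4, a droplet coat protein of white fat cells, was the member with a negative difference. It was at 11.75, 11.68, 11.98 and 12.18 in the controls and 11.63, 11.66, 11.63 and 12.11 in the mutants, a difference of -0.14 (SE 0.11, adjusted p = 0.663), and mutant 2 was not its highest array.

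Among the regulators, Pparg, the factor that drives fat cell formation, was at 5.78, 6.64, 7.39 and 6.63 in the controls and 7.73, 9.82, 6.60 and 6.98 in the mutants (difference 1.17, SE 0.70, adjusted p = 0.596). Cebpa, its partner in that program, was at 6.97 to 8.12 in the controls, at 8.58 and 10.29 in mutants 1 and 2, and at 6.98 and 7.23 in mutants 3 and 4. For both genes the set 1 mutants were above all 4 controls and the set 2 mutants lay among them.

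Among enzymes and carriers of fuel uptake and breakdown, Lpl, which releases fatty acids from circulating lipoproteins, was at 10.42, 10.95, 12.35 and 12.00 in the controls and 12.81, 13.82, 11.75 and 12.24 in the mutants. It had the lowest p of the tested members, with a difference of 1.23 (SE 0.59, 95% interval -0.17 to 2.62, adjusted p = 0.558). Its controls were split by set, with set 1 more than 1 unit below set 2. Pnpla2, the first lipase of stored fat, was at 9.53 to 9.92 in the controls and at 10.42, 11.88, 9.30 and 10.03 in the mutants. Lipe, the hormone-sensitive lipase, was at 6.36, 7.27, 5.42 and 5.03 in the controls and 7.83, 10.08, 4.60 and 4.52 in the mutants. It was lower in set 2 than in set 1 in both genotypes. Car3, a carbonic anhydrase abundant in fat cells, was at 12.50 to 13.39 in the controls and 14.11, 14.99, 12.95 and 12.75 in the mutants. Slc2a4, the insulin-responsive glucose transporter of fat and muscle, was at 6.97 to 7.82 in the controls and 10.07 in mutant 2, while the other mutants (6.91 to 7.36) lay within or just below the control range.

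Among the genes of fatty acid and triglyceride synthesis, Fasn (fatty acid synthase) was at 10.68, 11.94, 11.83 and 11.47 in the controls and 11.21, 14.20, 11.09 and 11.73 in the mutants. Acly, which supplies acetyl-CoA, was at 11.35 to 12.58 in the controls and at 11.23, 14.50, 11.52 and 11.95 in the mutants, and Scd1, a desaturase, at 11.97 to 13.68 and at 12.66, 15.06, 12.53 and 13.25. For these 3 genes mutant 1 was no higher than control 2, and only mutant 2 stood above the controls. Their differences were 0.58, 0.27 and 0.31 with all arrays and -0.18, -0.51 and -0.31 without mutant 2. Dgat2, which completes triglycerides, was at 6.44 to 7.82 in the controls and 7.91, 11.22, 5.77 and 6.97 in the mutants, with 0.76 and, without mutant 2, -0.26. Agpat2, an earlier enzyme of the same path, was at 8.18 to 10.03 in the controls and 9.65, 12.64, 9.04 and 9.72 in the mutants.

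**Figure D2:**
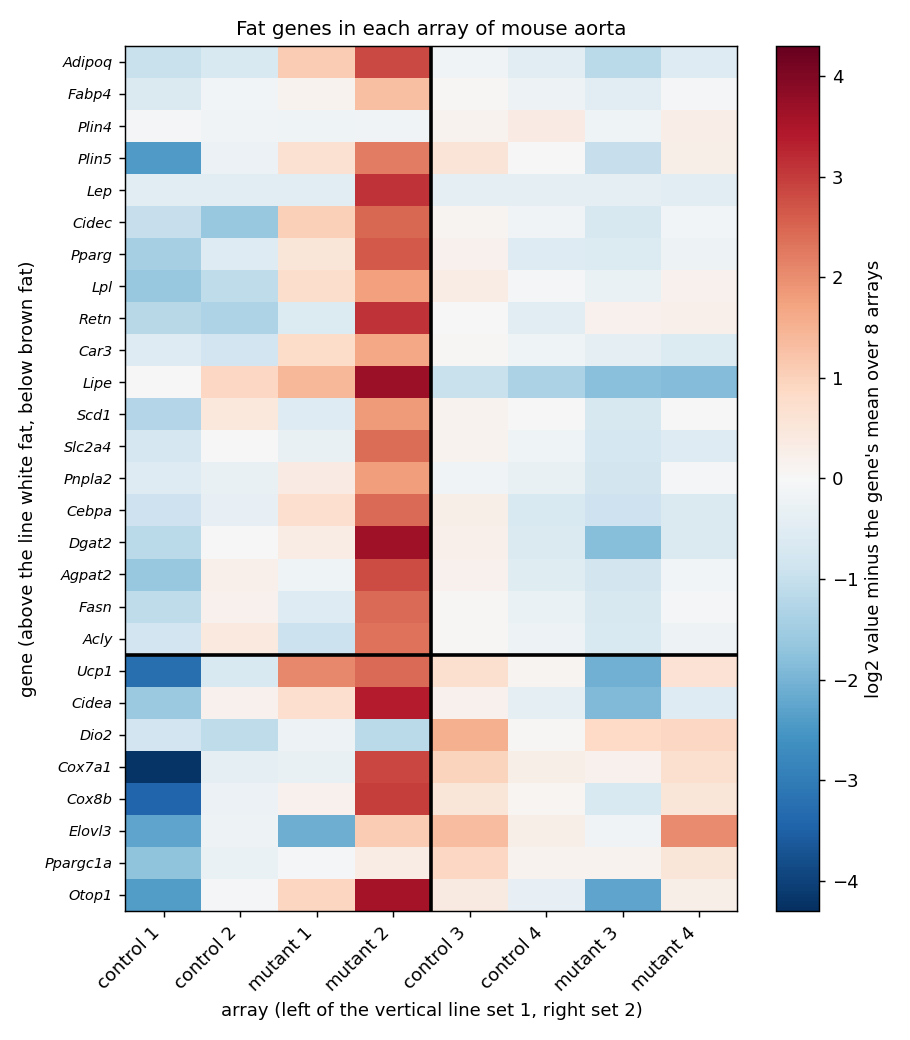
Value of each member in each array minus that gene's mean over the 8 arrays (log2), with arrays in columns by set and group and genes in rows, white genes above brown. Red is above and blue below the gene's mean; mutant 2 is the reddest column for most white genes, and control 1 is the bluest column for most brown genes.

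Of the brown fat genes, Ucp1, the uncoupling protein itself, was at 6.83, 9.43, 10.77 and 10.21 in the controls and 12.16, 12.50, 8.02 and 10.71 in the mutants. The controls alone spanned 3.94 units, and the difference of 1.54 (SE 1.24, 95% interval -1.41 to 4.48) did not pass (adjusted p = 0.666). Unlike Lep, Ucp1 was nearly as high in mutant 1 as in mutant 2, which lay 0.34 above it. Cidea, a droplet protein typical of brown fat, was at 8.39, 10.19, 10.16 and 9.56 in the controls and 10.70, 13.38, 8.09 and 9.45 in the mutants (difference 0.83, SE 1.00, and -0.09 without mutant 2). Otop1, a proton channel found in brown fat, was at 2.88, 5.20, 5.66 and 4.92 in the controls and 6.20, 8.84, 3.00 and 5.53 in the mutants. Ucp1, Cidea and Otop1 were all low in control 1 and in mutant 3.

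Cox7a1 and Cox8b encode respiratory chain subunits of heart, muscle and brown fat. Cox7a1 was at 4.00, 7.79, 9.17 and 8.47 in the controls and 7.89, 11.08, 8.40 and 8.91 in the mutants, and Cox8b at 6.47, 9.61, 10.39 and 9.94 and at 10.06, 12.85, 9.20 and 10.39. In both, control 1 stood more than 3 units below the other control of its set, and the differences of 1.71 (SE 1.19) and 1.52 (SE 1.10) did not pass. Ppargc1a, the coactivator of mitochondrial genes, was at 3.77, 5.23, 6.39 and 5.65 in the controls and 5.46, 5.83, 5.67 and 6.03 in the mutants. Apart from control 1 this probe set stayed between 5.23 and 6.39. Not all of the gene's 5 probe sets were as steady, and a dimmer one was at 2.48 in control 2 and 6.35 in control 3. Elovl3, a fatty acid elongase of brown fat, was at 2.87, 4.95, 6.47 and 5.40 in the controls and at 3.07, 6.26, 5.01 and 7.20 in the mutants. It was near the lowest mean kept in the test in control 1 and in mutant 1, although Ucp1 was high in mutant 1. Dio2, the deiodinase that makes active thyroid hormone in brown fat, was at 7.43, 7.16, 9.76 and 8.29 in the controls and 8.01, 7.08, 9.09 and 9.13 in the mutants. Its difference of 0.17 (SE 0.34, 95% interval -0.64 to 0.98) was the smallest of the 8 brown genes, and mutant 2 was its lowest array.

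**Figure D3:**
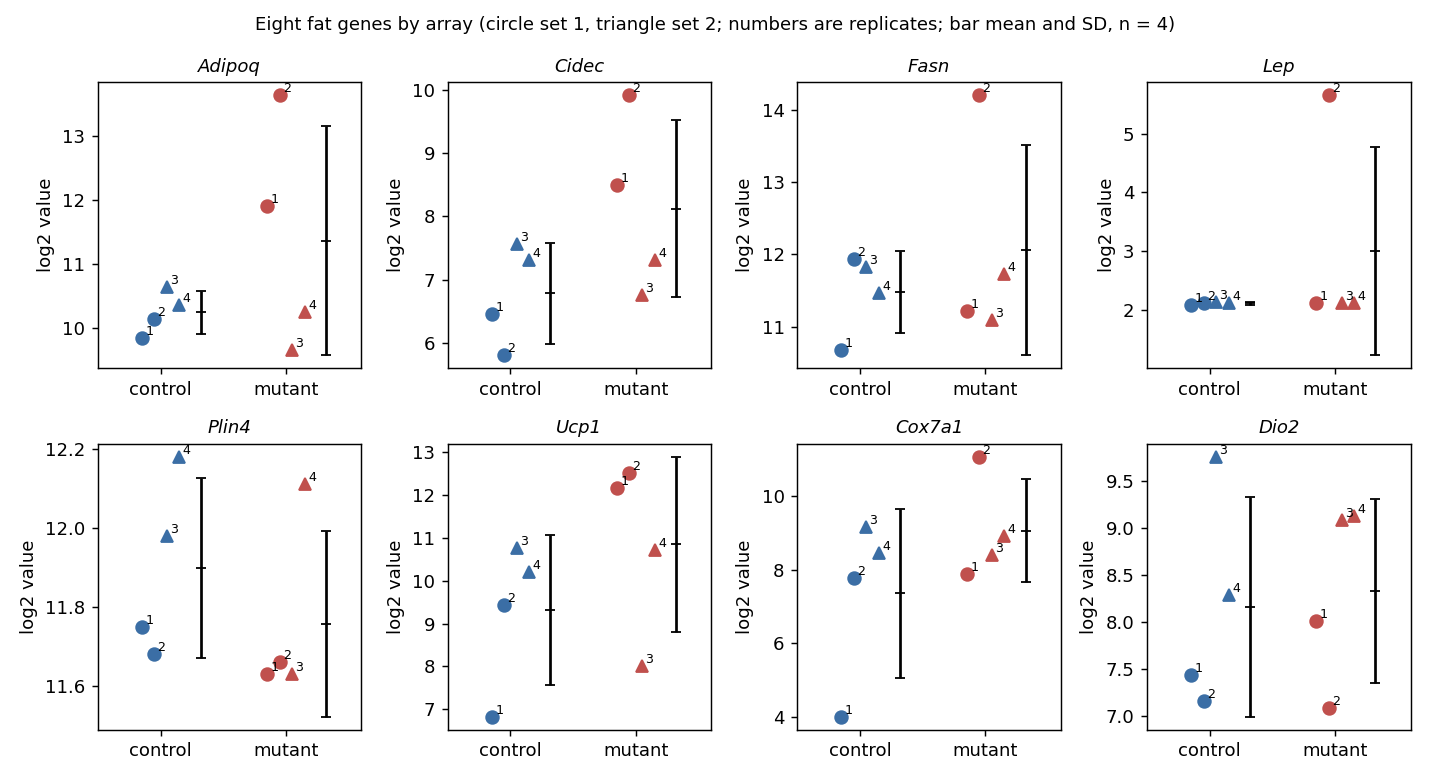
Log2 value of 8 members in each array, controls in blue and mutants in red, set 1 as circles and set 2 as triangles, with replicate numbers and a bar for the mean and SD (n = 4). For Adipoq, Cidec and Ucp1 both set 1 mutants lie above all 4 controls and the set 2 mutants do not, for Lep and Fasn mutant 2 alone does, and Plin4 and Dio2 show neither order.

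The difference between mutants and controls is given here within each set, and the test of whether it differed between the sets follows. In set 1 it was above 0 for 25 of the 26 tested members, with a median of 2.09 for the white and 3.08 for the brown genes, against -0.04 for all genes. In set 2 it was below 0 for 23 of 26, with medians of -0.38 and -0.27, against 0.00 for all genes. Both set 1 mutants were above both set 1 controls for 18 members, 12 white and 6 brown, against 18.8% of all genes. In set 2 both mutants were below both controls for 5 members (Adipoq, Car3, Lipe, Slc2a4 and Cidea), a share near the 16.3% of all genes, and above both for Retn alone, against 16.6% of all genes. Ucp1 differed by 4.20 in set 1 and -1.12 in set 2, Adipoq by 2.77 and -0.54, and Lpl by 2.63 and -0.18.

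The genotype by set interaction, fitted in limma, had an adjusted p under 0.05 for 0 of 26 members, against 0.0575% of all genes. At an unadjusted p under 0.05 it counted 12 members, 9 white (Adipoq, Plin5, Cidec, Pparg, Lpl, Car3, Lipe, Pnpla2 and Cebpa) and 3 brown (Ucp1, Cidea and Otop1), against 5.16% of all genes. The lowest of these p-values was 0.0012, for Car3, with an adjusted p of 0.451. The counts for the interaction changed when single arrays were left out. Each such fit leaves a lone array in its group within a set and takes its spread from the other groups. No conclusion is drawn from those counts.

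**Figure D4:**
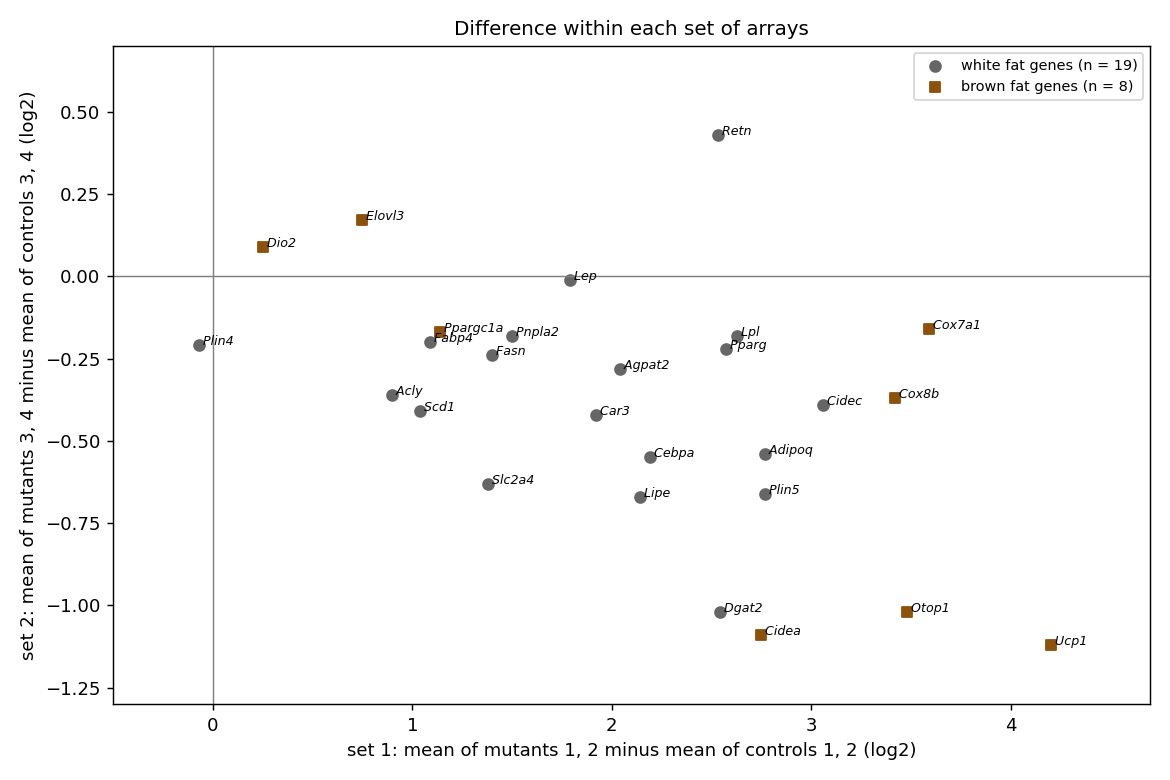
Difference between the mean of the mutants and the mean of the controls within set 1 (horizontal axis, log2) and within set 2 (vertical axis, log2), 1 point per gene with 2 arrays a group. White genes are circles and brown genes squares; nearly all points lie to the right of 0, and only Retn, Elovl3 and Dio2 lie above 0 on the vertical axis.

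Mutant 2 held the highest values of set 1. It was the highest array for 22 of the 26 tested members, 17 white and 5 brown, against 23.3% of all genes, and the highest by at least 1 unit for 20, 16 white and 4 brown, against 6.75%. Over the next array it was 3.32-fold higher for Adipoq. Mutant 1 followed: it was above both set 1 controls for 19 members, 12 white and 7 brown, against 29.1% of all genes. With mutant 2 set aside, mutant 1 was the highest array for 14 members, a count that was not made over all genes. Mutant 1 lay below control 2 for 7 members, against 51.9% of all genes: Plin4, Scd1, Slc2a4, Agpat2, Fasn, Acly and Elovl3. In mutant 1 Ucp1 was 4.03 above the mean of the set 1 controls, Cidec 2.36, Lpl 2.13 and Adipoq 1.90, while Acly was at -0.73 and Elovl3 at -0.84 relative to it.

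Marker lists of other tissues also varied between arrays, and some were highest in mutant 2. All 6 nerve markers with a value, of 8 listed, were highest there. Their mean, centred on each gene's own mean, was -1.32 to -0.60 in the controls, -0.67 to -0.49 in mutants 1, 3 and 4, and 5.10 in mutant 2. Th, the first enzyme of noradrenaline synthesis in sympathetic neurons, was at 2.15 to 2.20 in 7 arrays and 9.92 in mutant 2, and Dbh, a later enzyme of that path, at 2.77 to 3.19 and 11.66. The 15 mitochondrial genes were also highest in mutant 2, with a centred mean of 0.82 against -0.26 to 0.04 in the other arrays. Endothelial and macrophage markers were also high in both set 1 mutants. The centred mean of the 8 endothelial markers was 0.91 in mutant 1 and 1.78 in mutant 2 against -1.03 to -0.05 in the controls. That of the 9 macrophage markers was 1.14 and 0.72 against -1.05 to 0.04. In set 2 the endothelial mean was -0.38 and -0.23 in mutants 3 and 4 against -0.53 and -1.03 in controls 3 and 4. The macrophage mean was 0.14 and 0.23 there, against 0.04 and -0.61. Unlike most fat genes, all 8 endothelial and all 9 macrophage markers were also higher in the mutants in set 2 alone. The centred mean of the 8 fibroblast markers was not highest in the set 1 mutants. It was 0.50 and 0.35 in mutants 1 and 2, 0.65 and 0.62 in mutants 3 and 4, and -1.01 to 0.37 in the controls. The part of these tissues, or of the array itself, in the fat gene values was not tested.

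**Figure D5:**
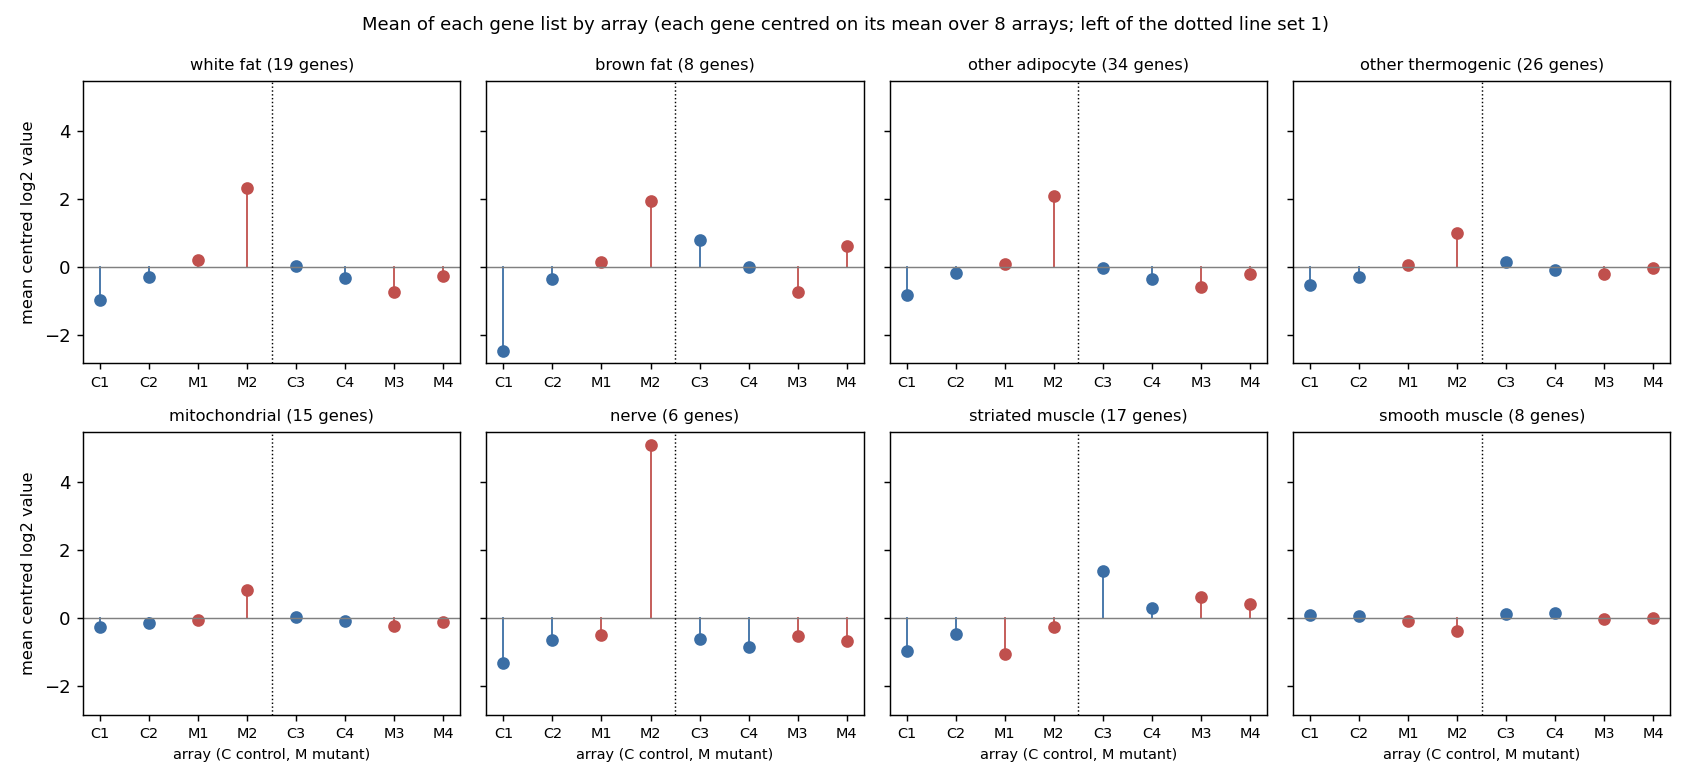
Mean of each gene list in each array, centred on each gene's mean over the 8 arrays (log2), for the white and brown members, further fat and heat production genes, mitochondrial, nerve, striated muscle and smooth muscle markers, with controls in blue, mutants in red and set 1 to the left of the dotted line. The white list is highest in mutant 2 (2.33), as is the nerve list (5.10), and the brown list is lowest in control 1 (-2.46).

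Members with more than 1 probe set did not all repeat their pattern. Second probe sets of Lpl (10.71 and 11.86 in mutants 1 and 2, 8.36 to 10.25 in the controls), Dgat2, Scd1, Slc2a4 and Plin5, and all further ones of Fabp4 and Car3, were also highest in mutant 2. A dimmer probe set of Pnpla2 was lowest in mutant 2 (5.94) and differed by -0.01, unlike the brighter one with 0.66. Of the 6 probe sets of Acly, 4 were highest in mutant 2, while 2 dim ones, 1 of them tested (difference -0.04), were highest in control 3 and lowest in mutant 2. The second probe set of Lipe, too dim for the test, was also highest in control 3 (2.50) and lowest in mutant 2 (2.34). The 5 probe sets of Ppargc1a disagreed, since 3 were highest in control 3, 1 in mutant 1 and 1 in mutant 2. The second tested probe set of Dio2 was, like the first, highest in control 3 (6.93), and it differed by 0.27.

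Control 1 stood at the other end. It was the lowest array for 14 of the 26 members, 8 white and 6 brown, against 14.4% of all genes. The centred mean of the brown genes was -2.46 in control 1 and -0.35, 0.81 and 0.01 in controls 2, 3 and 4, and that of the white genes was -0.97 and -0.29, 0.04 and -0.33. With both control 1 and mutant 2 left out, an alternative added after the data were seen, the median difference was -0.09 for the white and -0.09 for the brown genes. Heart markers also varied between arrays. Myh6, the cardiac myosin heavy chain, was at 4.41, 7.52, 11.54 and 9.77 in the controls and 4.49, 7.66, 11.15 and 10.46 in the mutants, lowest in control 1 and mutant 1 and highest in set 2. Over the 17 striated muscle markers the centred mean was -1.06 to -0.25 in set 1 and 0.31 to 1.38 in set 2. Cox7a1, Cox8b, Slc2a4 and Ppargc1a are among the members expressed in heart as well as in fat. The part of heart tissue in the values of these or other members was not tested.

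The set itself, apart from genotype, separated 2 of the 26 tested members at an adjusted p under 0.05 in limma, against 16.6% of all genes. Dio2 was 1.65 higher in set 2 (SE 0.34, adjusted p = 0.0167) and Lipe was -2.99 in set 2 relative to set 1 (SE 0.71, adjusted p = 0.0271). Every set 2 array was above every set 1 array for Dio2 and below for Lipe. Both calls were lost without control 2, with an adjusted p of 0.0522 for Dio2, and that of Lipe also without control 4, mutant 1, mutant 3 or mutant 4, with an adjusted p of up to 0.0802.

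Further fat genes were read from 2 longer lists, which were drawn up with earlier results of these arrays known. Of 33 tested genes among 35 further fat cell genes, 32 were higher in the mutants, against 44.9% of all genes, and 0 passed after adjustment. At an unadjusted p under 0.05 there were 3, a share near the 10.4% of all genes, and the median difference was 0.68. The 4 with the smallest p, named by rule and not as calls, were Angptl4, Cebpd, Ephx2 and Pde3b. Angptl4, a secreted inhibitor of Lpl, was at 7.25, 7.54, 8.10 and 7.69 in the controls and 8.07, 8.94, 8.57 and 8.60 in the mutants (difference 0.90, SE 0.22, adjusted p = 0.385), with the mutants above the controls within each set. Cebpd, an early factor of fat cell formation, was at 9.95, 9.50, 11.37 and 11.11 and at 10.61, 10.60, 11.36 and 11.76 (difference 0.60, SE 0.17, adjusted p = 0.444), with the set 1 mutants above the set 1 controls. Ephx2, an epoxide hydrolase, differed by 0.88 (SE 0.36, adjusted p = 0.521) and Pde3b, a phosphodiesterase that restrains lipolysis, by 0.81 (SE 0.43, adjusted p = 0.573). Unlike most fat genes, Cebpd was not highest in mutant 2.

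Of 27 further genes of heat production and fatty acid oxidation, 22 were tested, 18 were higher in the mutants (44.9% of all genes) and 0 passed, with 0 at an unadjusted p under 0.05 (10.4% of all genes) and a median difference of 0.52. Slc25a20, the carnitine carrier of mitochondria, differed by 0.60 (SE 0.34), Cpt2, which acts beside it, by 0.55 (SE 0.33), and Pank1, of coenzyme A synthesis, by 0.68 (SE 0.41). Prdm16, a regulator of brown fat identity, differed by -0.18 (SE 0.11) and varied only from 11.33 to 11.83, lowest in mutant 2. In set 2 the median was -0.23 for the further fat cell genes and -0.09 for the heat production genes, against 1.53 and 1.17 in set 1.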

How the data were processed

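The values are the log2 values per probe set as deposited by the authors in the series' value table, with GCOS (no version) named in the submitters' processing notes. How background was handled and arrays scaled is not stated in the labels. Of 45037 probe sets, 34945 carried 1 gene symbol in the platform annotation, 932 several and 9160 none. A filter removed the dimmest 40% by mean (lowest mean kept 2.97). The remaining 27021 were fitted in limma 3.58.1 (R 4.3.3), with terms for genotype and for the title set as a block and with eBayes using a trend. P-values were two-sided, adjusted by Benjamini-Hochberg over all 27021, and called under 0.05. A difference is the mutant minus the control value in log2 units. The set number of the titles is shared by 2 controls and 2 mutants and pairs no single arrays. Single genes were also tested with exact permutation tests that take no account of the set (Python 3.11.15, scipy 1.17.1). Arrays give no read depth, and their number limits the precision.

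The members and lists were chosen with earlier results of these data known. Named genes are the members, Srf, the cell type markers and the 4 genes with the smallest p of each longer fat list. Any other gene was named after its values were seen. Alternatives were other filters, the mean of a gene's probe sets, no trend, robust eBayes, median centring, quantile normalization, array weights, each set alone, no block and each array left out. The limma scripts were tested on simulated data. Promoter windows are RefSeq's for GRCm38.p6. Those of Dgat2, Slc2a4, Cidea, Scd1, Elovl3, Lpl, Adrb3, Fabp4, Car3 and Cpt1b were not used here.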

Additional observations from a re-analysis of the deposited data

Results flagged for a closer look

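In 3 of 54 groups of 4 arrays, 1 array stood apart from the other 3 by Dixon's criterion, which chance meets in about 1 in 20 groups. Lep was at 5.65 in mutant 2, with the gap to the next mutant 0.997 of the group's range. Slc2a4 was at 10.07 in mutant 2, with a gap of 0.858 of the range. Plin4 was at 12.11 in mutant 4, with a gap of 0.938 of the range, and here mutant 4 was within the range of the controls.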

How the results depend on the processing

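For mutant against control, no member passed after adjustment under any alternative run. Without the set as a block 0 passed. The medians stayed at 0.75 (white) and 1.03 (brown) and no sign changed, which the design fixes. Each set holds 2 mutants and 2 controls, so leaving out the block can change only the p-values. The white median was 2.09 in set 1 alone, -0.38 in set 2 alone and -0.09 with control 1 and mutant 2 left out, and the brown median 3.08, -0.27 and -0.09. Leaving out each array in turn gave 0.14 to 1.17 and 0.26 to 1.81, and 0 to 12 white and 0 to 1 brown genes passing the interaction. The interaction counts above 0 came only from the fit without mutant 1, which leaves mutant 2 as the lone mutant of set 1. A lone array adds no spread of its own, so these counts are no evidence of an interaction. With single arrays left out, the set difference of Dio2 ran from 1.34 to 1.93 and that of Lipe from -3.46 to -2.26. With control 1 and mutant 2 both left out, that of Dio2 was 1.48 (adjusted p = 0.0694). The sign turned in set 2 alone for 22 members: Adipoq -0.54, Fabp4 -0.20, Plin5 -0.66, Cidec -0.40, Pparg -0.22, Lpl -0.18, Car3 -0.42, Lipe -0.67, Scd1 -0.41, Slc2a4 -0.63, Pnpla2 -0.18, Cebpa -0.55, Dgat2 -1.02, Agpat2 -0.28, Fasn -0.24, Acly -0.35, Ucp1 -1.12, Cidea -1.09, Cox7a1 -0.16, Cox8b -0.37, Ppargc1a -0.17 and Otop1 -1.02. With control 1 and mutant 2 left out it turned for 16: Fabp4 -0.05, Plin5 -0.13, Lipe -0.26, Scd1 -0.61, Slc2a4 -0.53, Cebpa -0.01, Dgat2 -0.58, Agpat2 -0.31, Fasn -0.40, Acly -0.69, Cidea -0.56, Cox7a1 -0.08, Cox8b -0.10, Elovl3 -0.51, Ppargc1a -0.04 and Otop1 -0.35. With array weights the medians were 0.32 and 0.62, and the sign turned for Scd1 (-0.16), Slc2a4 (-0.22), Fasn (-0.04), Acly (-0.41) and Elovl3 (-0.04). Leaving out single arrays turned Scd1 (-0.31 to 0.65), Slc2a4 (-0.37 to 0.72), Dgat2 (-0.26 to 1.35), Fasn (-0.18 to 1.01), Acly (-0.51 to 0.80), Cidea (-0.09 to 1.49) and Elovl3 (-0.23 to 1.04), each without mutant 2, and Scd1, Acly and Elovl3 also without control 1, and Dio2 (-0.11 to 0.48) without control 4 or mutant 1. These alternatives use fewer arrays or weigh mutant 2 down, and the cause of each turn was not tested. With 4 arrays a group the 95% interval of each tested member's genotype difference included 0.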
